A study of Mus musculus with 3 samples.

Results

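Among the CD45+F4/80+ cells sorted from the infarct and border zones of juvenile mouse hearts, 437 of 10550 cells formed the population described here. They were chosen by measured values. A cell had to carry the complement C1q transcripts C1qa, C1qb and C1qc at 0.3% or more of its unique molecular identifiers (UMIs, each counting 1 captured transcript molecule), at least 2 UMIs of Lyve1, at least 2 UMIs of Folr2, at least 1 UMI of Cd163, and no UMI of the division genes Mki67 and Top2a. These genes therefore describe the population and are not results about it. They are called Lyve1+Folr2+ macrophages below, and the 4419 other C1q-positive cells without Mki67 or Top2a served as the comparison.

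All mice were C57BL/6, were operated at postnatal day 10 and were sampled 3 days later, at P13, and each condition was a single library from pooled hearts of both sexes. P10-sham_vehicle received a sham operation and the solvent, P10-MI_vehicle received a tie around the left anterior descending artery of the heart (myocardial infarction, MI) and the solvent, and P10-MI_SB225002 received the same ligation and daily intraperitoneal SB225002, which blocks CXCR2, a receptor for neutrophil-attracting chemokines, whose stated dose differs between the sources used here. They are called the sham, MI and SB225002 libraries. With 1 library for each condition, no difference between conditions has a replicate check, and every interval between libraries covers counting error alone. The animals pooled, the sort and the library preparation cannot be told apart from the condition.

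Lyve1+Folr2+ macrophages are one of the tissue-resident macrophage types of the heart. Such cells are laid down largely before birth, lie along blood vessels and fibres, renew themselves locally with little input from blood monocytes, and take up dying cells, scavenger ligands and hemoglobin complexes. LYVE1 is a hyaluronan receptor that lymphatic endothelium also carries, FOLR2 is a folate receptor, CD163 is the receptor for hemoglobin bound to haptoglobin, and CBR2 is a carbonyl reductase that marks resident macrophages in several tissues.

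The sham, MI and SB225002 libraries held 174, 165 and 98 Lyve1+Folr2+ macrophages. Their share of C1q-positive non-dividing cells was 14.5% (95% exact binomial interval 12.6 to 16.6, 174 of 1198 cells) in the sham library. It was 9.71% (8.34 to 11.2, 165 of 1700) in the MI library. It was 5.01% (4.08 to 6.07, 98 of 1958) in the SB225002 library. The 3 intervals did not overlap, and the share differed by -4.82 percentage points (Newcombe interval -7.34 to -2.36) between the MI and sham libraries and by -4.70 points (-6.47 to -2.97) between the SB225002 and MI libraries. The rule counts absolute UMIs, and the cells of the sham library were the deepest. When every cell was thinned to 2000 UMIs before the rule was applied, the shares were 1.21%, 2.76% and 1.08%. At 4000 UMIs they were 6.04%, 7.04% and 3.23%, so the order of the sham and MI libraries turned at both depths. The MI minus sham difference at 4000 UMIs was 0.996 points (Newcombe interval -1.003 to 2.97), an interval that holds both signs. Thinning left out 60, 194 and 273 C1q-positive non-dividing cells at 2000 UMIs and 202, 529 and 742 at 4000 UMIs. The whole rule was read after thinning, so cells that lost their Mki67 and Top2a UMIs could enter. At 2000 UMIs the shares were of 1482, 1812 and 2132 cells, beside 1138, 1506 and 1685 kept cells that were C1q-positive and non-dividing before thinning. The thinned shares are thus not of the same cells as the shares by the rule as given. With the thresholds set on levels per 10000 UMIs instead, the shares were 12.7%, 10.6% and 5.57%. The lower share in the SB225002 than in the MI library was found under each of these settings, and the lower share in the MI than in the sham library was not.

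**Figure D1:**
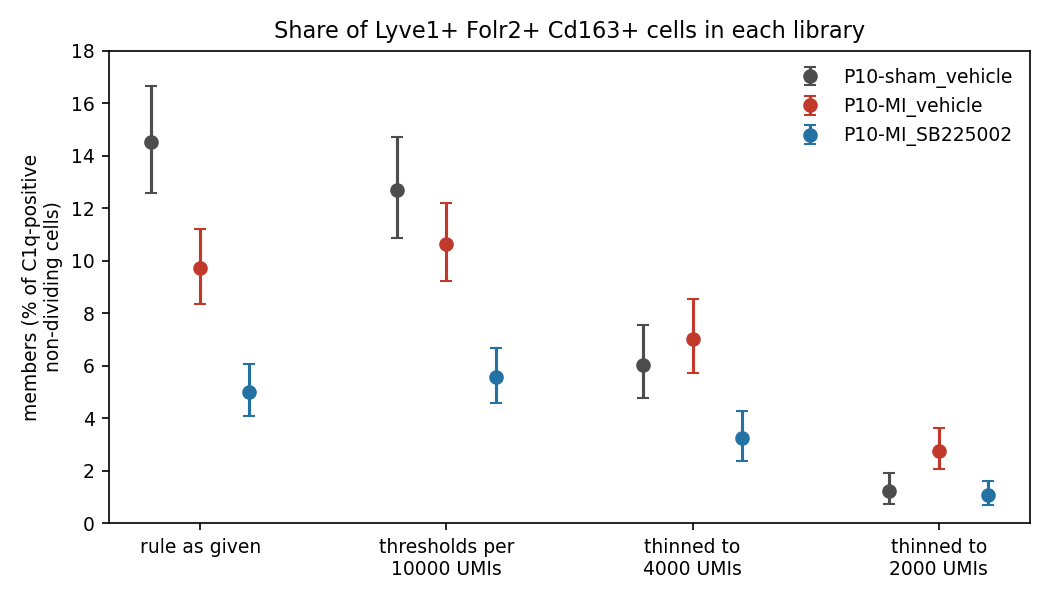
Share of Lyve1+Folr2+ macrophages (members) among C1q-positive non-dividing cells (%, vertical axis) in the sham, MI and SB225002 libraries under the rule as given and under alternative settings; points are shares and bars are 95% exact binomial intervals. Under the rule as given the shares step down from 14.5% to 9.71% and 5.01%, whereas after thinning to 2000 UMIs the MI library is the highest, at 2.76%.

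Levels of the same genes can also be read without selecting cells on them. Over all C1q-positive non-dividing cells together, Lyve1 was at 269, 237 and 125 CPM (UMIs of the gene scaled to a sum of 1000000) in the sham, MI and SB225002 libraries, Cd163 at 202, 183 and 71.3 CPM, and Folr2 at 300.1, 282 and 243 CPM. Lyve1 and Cd163 were thus lowest in the SB225002 library over all these cells, and Folr2 varied least. The cells summed had already passed the C1q and division conditions, and C1q-positive cells were 89.9%, 72.8% and 68.7% of all cells kept. Fewer cells of a type and less RNA per cell cannot be told apart in such sums.

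Markers of the population were checked next. Within the selected cells Lyve1 was at 752, 909 and 802 CPM in the sham, MI and SB225002 libraries, Folr2 at 579, 679.6 and 761 CPM, and Cd163 at 537, 661 and 499 CPM. The median cell carried 5, 5 and 5 UMIs of Lyve1, 5, 5 and 5 of Folr2, and 4, 4 and 3 of Cd163. After thinning to 2000 UMIs, Cbr2, which the rule did not use, was detected in 85.6%, 89.6% and 82.5% of the selected cells, against 54.9%, 50.1% and 30.5% of the other C1q-positive cells. Cbr2 was found in 0, 2.13% and 0% of B cells and in 5.26%, 0% and 1.05% of neutrophils thinned in the same way (18 to 47 B cells and 19 to 95 neutrophils), and these cells, which should lack it, give the level of free RNA. B cells were taken as cells with Cd79a and Cd79b UMIs, and neutrophils as cells with 5 or more UMIs of Ltf, Ngp and Camp, both with C1q under 0.1% of UMIs. The general macrophage genes Csf1r (942, 990.3 and 894 CPM) and Adgre1, which encodes F4/80 (509, 508 and 391 CPM), were present in every library. The lymphatic endothelial genes Prox1, Flt4, Mmrn1 and Ccl21a together held 5, 2 and 0 UMIs among all selected cells of a library.

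The border of the population was soft. Of the selected cells, 31.6%, 32.1% and 30.6% stood exactly at the threshold of Lyve1 or Folr2. Just outside were 40, 36 and 26 cells with 1 UMI of Lyve1 that met every other condition, 30, 35 and 19 with 1 UMI of Folr2, and 116, 125 and 90 with no UMI of Cd163. Cells that met the rule apart from carrying Mki67 or Top2a numbered 135, 106 and 89, which is 43.7% (38.1 to 49.4), 39.1% (33.3 to 45.2) and 47.6% (40.3 to 55.0) of the Lyve1+Folr2+Cd163+ C1q-positive cells, beside 43.4%, 32.4% and 39.96% of all C1q-positive cells.

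The selected cells held 1807512, 1383216 and 713318 UMIs in the sham, MI and SB225002 libraries, with a median of 9791, 7397 and 6428 UMIs and 3320.5, 2779 and 2661 genes per cell. They were deeper than the other C1q-positive cells, whose medians were 7292.5, 5642 and 5083 UMIs. Mitochondrial transcripts took a median of 5.34%, 4.76% and 3.57% of their UMIs. Cell barcodes were shared by 786, 842 and 1356 cells of each pair of libraries, of which 1, 2 and 3 were Lyve1+Folr2+ macrophages in both. Cells with the same barcode were no more alike than cells with neighbouring barcodes (median cosine similarity 0.619 and 0.621, 0.611 and 0.608, and 0.580 and 0.582 for the 3 pairs). Summed UMIs of marker genes of neutrophils, lymphocytes, endothelium, fibroblasts and mural cells reached 2 or more in 14.9%, 13.9% and 13.3% of the selected cells and in 14.7%, 14.8% and 14.7% of the other C1q-positive cells. Fibroblast genes held 209, 30 and 13 UMIs in all, mural genes 3, 108 and 1, cardiomyocyte genes 199, 109 and 114, and B cell genes 119, 145 and 53. No doublet caller was run.

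A few selected cells carried large amounts of granulocyte RNA, and this touches every comparison between libraries below. S100a8 and S100a9, the calcium-binding proteins that fill the cytosol of neutrophils and early monocytes, summed to 10 UMIs or more in 3, 13 and 10 Lyve1+Folr2+ macrophages of the sham, MI and SB225002 libraries. These were 1.72% (0.357 to 4.96), 7.88% (4.26 to 13.1) and 10.2% (5.003 to 17.97) of them, beside 1.66%, 5.47% and 11.3% of the other C1q-positive cells. They held 93.9%, 99.2% and 98.6% of all S100a8 and S100a9 UMIs of the population, whereas the median cell held 1, 1 and 2. Of these cells, 3, 8 and 6 also had 2 or more summed UMIs of the other-cell marker genes, which include neutrophil genes. Their median depth was 8743, 12619 and 12642 UMIs, beside 9824, 7115 and 6252.5 in the remaining selected cells. Whether the S100a8 and S100a9 UMIs came from the macrophage itself was not tested. Counts for the neutrophil and monocyte gene lists are therefore given with and without these cells.

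**Figure D2:**
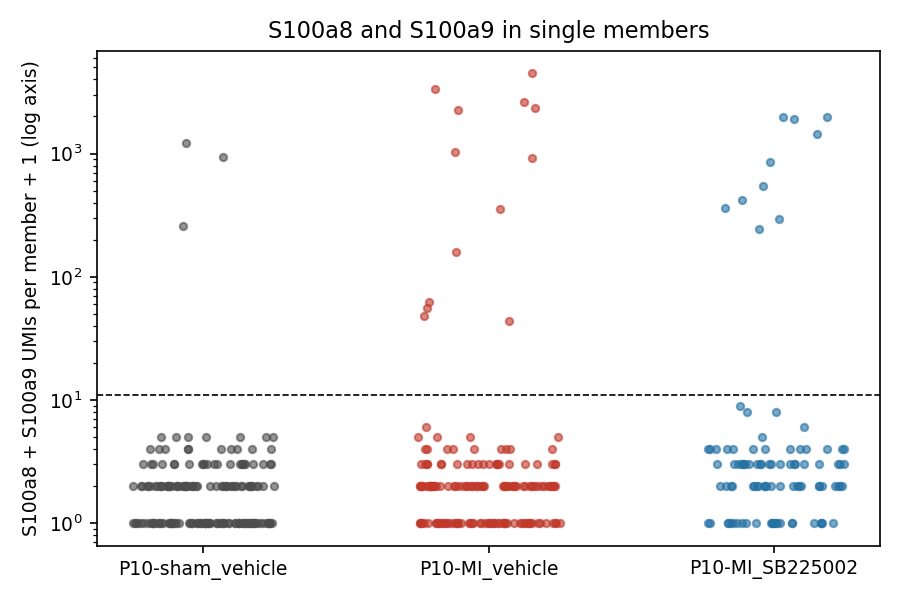
S100a8 plus S100a9 UMIs of each Lyve1+Folr2+ macrophage (vertical axis, UMIs plus 1 on a log scale) in the sham, MI and SB225002 libraries, each point a cell, with a dashed line at 10 UMIs. Above the line lie 3, 13 and 10 cells, which hold nearly all of the UMIs of these genes, and the highest carry 1219, 4486 and 1989.

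The first comparison asked which genes, beyond those of the rule, set Lyve1+Folr2+ macrophages apart from the other C1q-positive non-dividing cells of the same library. UMIs were summed over each class in each library and tested with edgeR's quasi-likelihood test with the library as a block. Of 12124 genes tested, 187 were higher (1.54%) and 268 were lower (2.21%) at an adjusted p under 0.05. The 3 libraries serve as the replicates of this test although they are 3 conditions. Its p-values weigh a difference against a spread across them that is drawn largely from all genes. Each gene gave 2 residual degrees of freedom, beside a median of 10.57 taken from all genes. Without the MI library, which leaves 2 pairs, 24 genes were higher and 46 lower, and without the SB225002 library 145 and 175. With other cells that lacked both Lyve1 and Folr2 UMIs as the comparison, 411 genes were higher and 533 lower.

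Genes known to mark resident macrophages were higher. Of 31 tested genes of a resident identity list, 21 were higher and 1 was lower, with a median log2 difference of 0.54 beside -0.0049 over all genes tested. Among the higher genes with at least 100 CPM, the largest difference was that of Fcna, which encodes ficolin-A, a secreted lectin that starts the lectin pathway of complement. It was at 115, 194 and 202 CPM in the Lyve1+Folr2+ macrophages and at 38.9, 41.1 and 54.9 CPM in the other cells, a log2 difference of 1.88 (SE 0.11, edgeR adjusted p 4.34e-06). Cbr2 was at 1105, 1253 and 1035 CPM against 552, 537 and 261 CPM (log2 difference 1.37, SE 0.13, edgeR adjusted p 1.12e-04). In both genes the lowest of the selected sums lay above the highest of the other sums.

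The phosphatidylserine receptor Timd4, a marker of long-lived resident macrophages, was sparse. It was at 23.8, 60.005 and 71.5 CPM in the selected cells and at 9.53, 15.5 and 9.95 CPM in the others (log2 difference 2.02, SE 0.22, edgeR adjusted p 3.16e-04), and 19.0%, 29.7% and 28.6% of the selected cells had at least 1 UMI of it. Vsig4, the complement receptor CRIg, was at 16.6, 57.1 and 85.5 CPM against 9.41, 14.5 and 12.5 CPM (log2 difference 1.94, SE 0.26, edgeR adjusted p 0.00102). Neither gene was detected in the thinned B cells or neutrophils.

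To show the regulatory sequence next to these genes, the promoters of the 3 genes just described first, Fcna, Cbr2 and Timd4, are given from RefSeq on build GRCm38.p6, each running from 250 bases before to 50 bases after the gene start and written along the gene's own strand. Fcna lies at chr2:25627925-25628224 on the minus strand, Cbr2 at chr11:120731972-120732271 on the minus strand and Timd4 at chr11:46810549-46810848 on the plus strand. Capitals mark 2 short motifs of macrophage transcription factors found on either strand, the MAF half-site TGCTGA and the PU.1 core GAGGAAG, and the longest run of capitals in Fcna is 2 overlapping copies of the latter.
Fcna: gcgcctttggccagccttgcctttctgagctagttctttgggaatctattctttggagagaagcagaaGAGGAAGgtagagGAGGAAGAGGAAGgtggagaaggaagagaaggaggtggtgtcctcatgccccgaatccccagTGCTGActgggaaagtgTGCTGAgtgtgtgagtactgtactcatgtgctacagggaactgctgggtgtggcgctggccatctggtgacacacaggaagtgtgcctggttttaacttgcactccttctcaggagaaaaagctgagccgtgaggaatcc
Cbr2: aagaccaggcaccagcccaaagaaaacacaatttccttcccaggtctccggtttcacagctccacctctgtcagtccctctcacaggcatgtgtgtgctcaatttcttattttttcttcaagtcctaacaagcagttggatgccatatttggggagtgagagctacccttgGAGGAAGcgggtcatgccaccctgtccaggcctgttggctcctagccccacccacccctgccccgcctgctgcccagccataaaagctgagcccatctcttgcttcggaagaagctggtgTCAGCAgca
Timd4: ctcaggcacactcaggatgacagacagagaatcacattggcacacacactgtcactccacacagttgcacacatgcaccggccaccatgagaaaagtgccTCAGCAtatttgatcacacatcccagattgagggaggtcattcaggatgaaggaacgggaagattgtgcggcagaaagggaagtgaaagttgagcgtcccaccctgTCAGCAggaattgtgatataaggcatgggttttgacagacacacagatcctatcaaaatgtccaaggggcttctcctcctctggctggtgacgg
Fcna held 2 MAF half-sites and 3 PU.1 cores, Cbr2 1 and 1, and Timd4 2 and 0. They were chosen for display after the values and motifs were known, and all 3 hold the MAF half-site. Of the 21 higher resident genes, 16 had a promoter in the table of 32851. The MAF half-site was in 6 of the 16 and in 19.5% of all promoters, the PU.1 core in 7 and in 13.6%, and the AP-1 motif TGACTCA in 0 and in 5.20%. These 3 were among 9 motif spellings searched, and the counts describe these windows without saying that a factor binds there.

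Of the other named higher genes, Ednrb, the type B endothelin receptor (log2 difference 1.60, SE 0.13), Ltc4s, which makes leukotriene C4 (1.19, SE 0.10), and Colec12, a scavenger receptor (0.94, SE 0.083), were each higher in all 3 libraries. F13a1, the A subunit of coagulation factor XIII, was at 3368, 3604 and 2193 CPM against 2040, 1819 and 839 CPM (log2 difference 1.004, SE 0.092, edgeR adjusted p 6.17e-05). Gas6 links phosphatidylserine on dying cells to TAM receptors, and was at 655, 644 and 698 CPM against 414, 353 and 239.6 CPM (0.99, SE 0.12, edgeR adjusted p 6.50e-04). The remaining named higher genes were C4b (complement C4), Wfdc17 (a small secreted protein), Npl (which breaks down sialic acid), and the interferon-inducible Ifi27l2a and Ddx60, with log2 differences from 0.93 to 1.25.

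Common resident genes differed by less. Mrc1, the mannose receptor CD206, was at 2699, 2179.7 and 1888 CPM against 2136, 1694 and 934 CPM (log2 difference 0.54, edgeR adjusted p 0.00857). The chemokine Pf4, the scavenger receptor Stab1, the selenium carrier Selenop, the transcription factor Maf and the neonatal Fc receptor Fcgrt were higher by 0.46, 0.48, 0.44, 0.54 and 0.84. The gene that was lower was Blnk, a B cell linker protein (-0.54, edgeR adjusted p 0.00538).

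**Figure D3:**
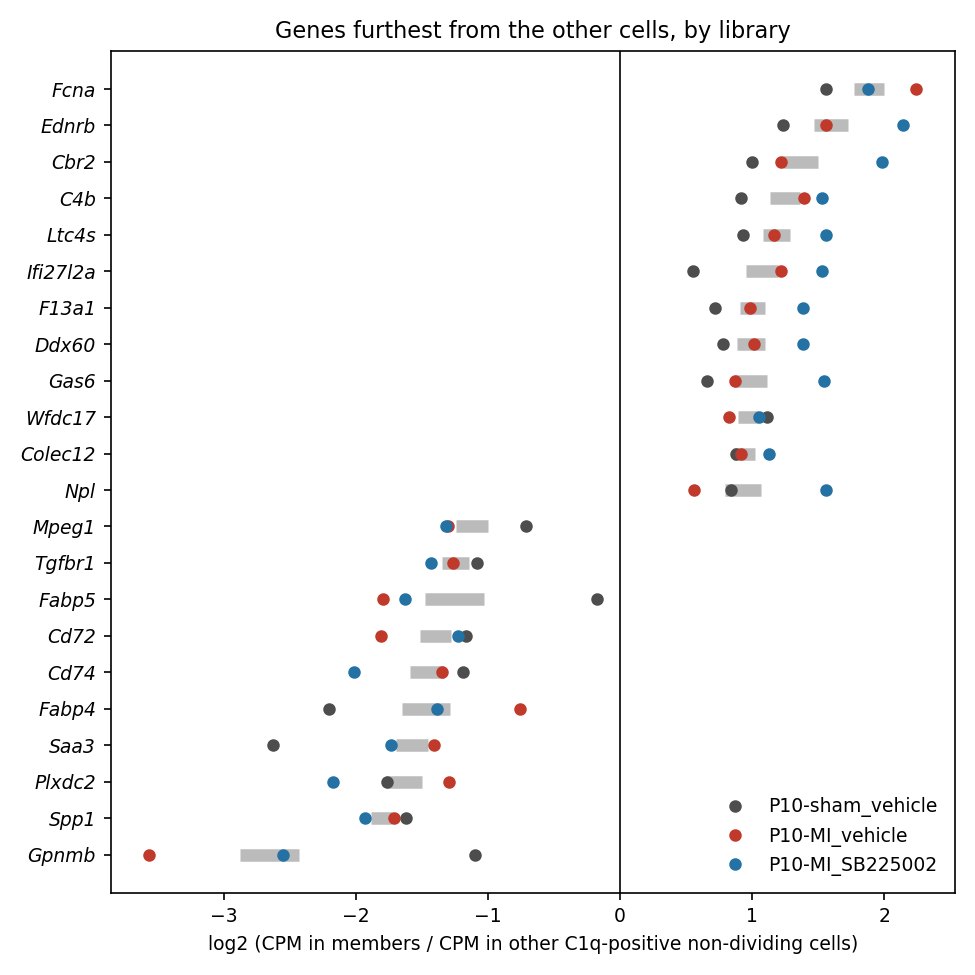
Log2 difference between Lyve1+Folr2+ macrophages and the other C1q-positive non-dividing cells (horizontal axis) for the 12 highest and 10 lowest named genes; grey bars are the edgeR estimate with its SE, dots are the sham, MI and SB225002 libraries. In each of these genes all 3 dots lie on the side of the bar, from 1.88 for Fcna to -2.65 for Gpnmb.

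Of 26 scavenging and clearance genes tested, 8 were higher and 3 lower (median log2 difference -0.07). Besides Timd4, Gas6, Stab1, Mrc1 and Colec12, the higher ones were the endocytic adaptor Dab2 (0.42), the TAM ligand Pros1 (0.46) and clathrin heavy chain Cltc (0.34). Lower were the TAM receptor Axl, at 22.1, 21.7 and 15.4 CPM against 47.3, 47.4 and 40.8 CPM (-1.18, SE 0.15, edgeR adjusted p 6.05e-04), and the integrin subunits Itgav (-0.75) and Itgb5 (-0.74). The TAM ligand Gas6 and the receptor Axl thus differed in opposite directions.

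Of 14 iron and heme genes tested, 9 were not called, the copper ferroxidase Cp (1.11), biliverdin reductase Blvrb (0.52) and the transferrin receptor Tfrc (0.71) were higher, and the ferritin chains Fth1 (-0.45) and Ftl1 (-0.33) were lower. A receptor for folate was among the genes that chose the cells, and edgeR called 0 of 13 other folate and one-carbon genes (2 at an unadjusted p under 0.05, and 0 by DESeq2). Among complement genes, C4b and Vsig4 were higher, and Cd93 and Itgax were lower.

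Genes of injury-associated and lipid-laden macrophages were lower. Of 24 tested, 11 were lower and 0 higher (median log2 difference -0.52). Gpnmb, a lysosomal glycoprotein, was at 5.53, 6.51 and 44.9 CPM against 11.9, 77.0 and 263 CPM (log2 difference -2.65, SE 0.22, edgeR adjusted p 4.32e-05). Spp1, which encodes osteopontin, was at 32.6, 497 and 1863 CPM against 100.2, 1624 and 7109 CPM (-1.80, SE 0.078, edgeR adjusted p 1.34e-07). Both genes were lower in the selected cells of every library while their level differed widely between libraries. The fatty acid carrier Fabp5 (-1.25), the matrix protease Mmp12 (-3.70), arginase Arg1 (-1.19), Cd9 (-1.11), the lectin Lgals3 (-0.72), the lipid receptor Trem2 (-0.58) and Apoe (-0.32) were also lower.

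MHC class II genes, which present antigen, were lower in 6 of 15 cases and higher in 0 (median -0.74). The invariant chain Cd74 was at 79.1, 103 and 61.7 CPM against 180.1, 261 and 248 CPM (log2 difference -1.46, SE 0.13, edgeR adjusted p 4.89e-05). H2-Aa was at 7.19, 28.9 and 1.40 CPM against 32.7, 91.1 and 75.3 CPM (-2.21, SE 0.27, edgeR adjusted p 5.54e-04). The selected cells of each library lay below every library of the others for Cd74. The remaining named lower genes were Plxdc2 (-1.63), the fatty acid carrier Fabp4 (-1.47), the lymphoid and macrophage receptor Cd72 (-1.40), the TGF-beta receptor Tgfbr1 (-1.25) and the pore-forming Mpeg1 (-1.12), each lower in all 3 libraries.

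Of 16 monocyte genes, Ccr2, the receptor that brings monocytes to tissue, and Ly6c1 were lower and 0 were higher. Ccr2 was at 7.75, 38.3 and 43.5 CPM against 41.7, 94.6 and 123 CPM (log2 difference -1.62, SE 0.16, edgeR adjusted p 1.03e-04). After thinning it was found in 1.15%, 3.68% and 3.09% of selected cells, beside 0, 4.26% and 11.1% of B cells and 0, 7.02% and 7.37% of neutrophils. In the MI and SB225002 libraries its share was thus no higher than in those cells, and whether it was free RNA was not tested. Of 24 inflammatory genes, 7 were lower and 0 higher, among them the acute-phase gene Saa3 (-1.58), Tnf (-0.76) and the NF-kB inhibitor Nfkbia (-0.48). After thinning, Saa3 was found in 0, 7.98% and 4.12% of selected cells and in 0.207%, 6.33% and 5.60% of the other C1q-positive cells. In the MI library the selected cells were thus not less often positive. B cells stood at 0, 6.38% and 5.56% and neutrophils at 0, 15.8% and 2.11%, and whether it was free RNA was not tested. Of the 7 neutrophil genes edgeR called 0, with 0 at an unadjusted p under 0.05 and 0 by DESeq2.

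Of 18 chemokines tested, Ccl24 (log2 difference 0.90), Ccl6 (0.82), Ccl9 (0.64), Pf4 and Ccl8 (0.45) were higher, and 7 were lower, including the transmembrane chemokine Cxcl16 (-0.89), Ccl4 (-0.86), Cxcl2 (-0.74) and Ccl3 (-0.53). Of 35 transcription factors, Klf4 (0.65), Klf2 (0.51), Maf, Rbpj and Etv1 were higher and Id2, Runx1 and Batf3 lower. Klf4 and Klf2 also belong to a list of 27 immediate-early genes, in which 8 others were lower, including Egr1 (-0.50) and Fos (-0.36). Of 12 heat shock genes edgeR called 0, with 1 at an unadjusted p under 0.05 and 0 by DESeq2. The growth factor Igf1 (0.03, edgeR adjusted p 0.918) and Fcrls (-0.12, edgeR adjusted p 0.502) were not called. The fractalkine receptor Cx3cr1 was lower (-0.41, edgeR adjusted p 0.0112).

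The Lyve1+Folr2+ macrophages also varied among themselves. In cells thinned to 2000 UMIs the median ratio of variance to mean, taken as the lowest of the 3 libraries, was 0.947 over 2629 genes, and 38 genes exceeded 2. Random counting gives about 1 in a single library and less for the lowest of 3, so the ratios serve to order the genes. The most uneven were S100a9 (81.1), S100a8 (71.2) and BC100530 (30.3), a stefin A gene, followed by the stefin Stfa1 (12.3), Gm5483 (8.52) and Lcn2 (9.47), all rich in neutrophils. Apoe (8.31), Ifi27l2a (5.80) and Wfdc17 (3.69) were the uneven genes of macrophage type, and Gm42418 (9.76), mt-Rnr2 (12.6) and mt-Rnr1 (6.12) are ribosomal RNA genes or overlap them. Apoe was detected in 99.4%, 100% and 100% of the thinned cells, so it varied in amount, whereas S100a9 was detected in 10.3%, 19.0% and 33.0%.

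The second comparison set the Lyve1+Folr2+ macrophages of the MI library beside those of the sham library. A gene was called when its ratio was at least 1.5-fold with a 95% interval that left out 1, among genes at 20 CPM or more in either library, and 20 CPM stood for 36.2, 27.7 and 14.3 UMIs in the sham, MI and SB225002 libraries. Of 6640 genes, 296 were higher (4.46%) and 216 lower (3.25%) in the MI library, with a median log2 ratio of -0.04. When the 2% of cells with the most UMIs of each gene were left out of each library, 200 of the 296 and 198 of the 216 were still called. With a stricter interval, 157 were higher and 44 lower. The intervals are not adjusted for the number of genes, so counting error alone gives some of these calls, most readily in genes of few UMIs. No test of the conditions is possible, and the calls compare libraries.

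**Figure D4:**
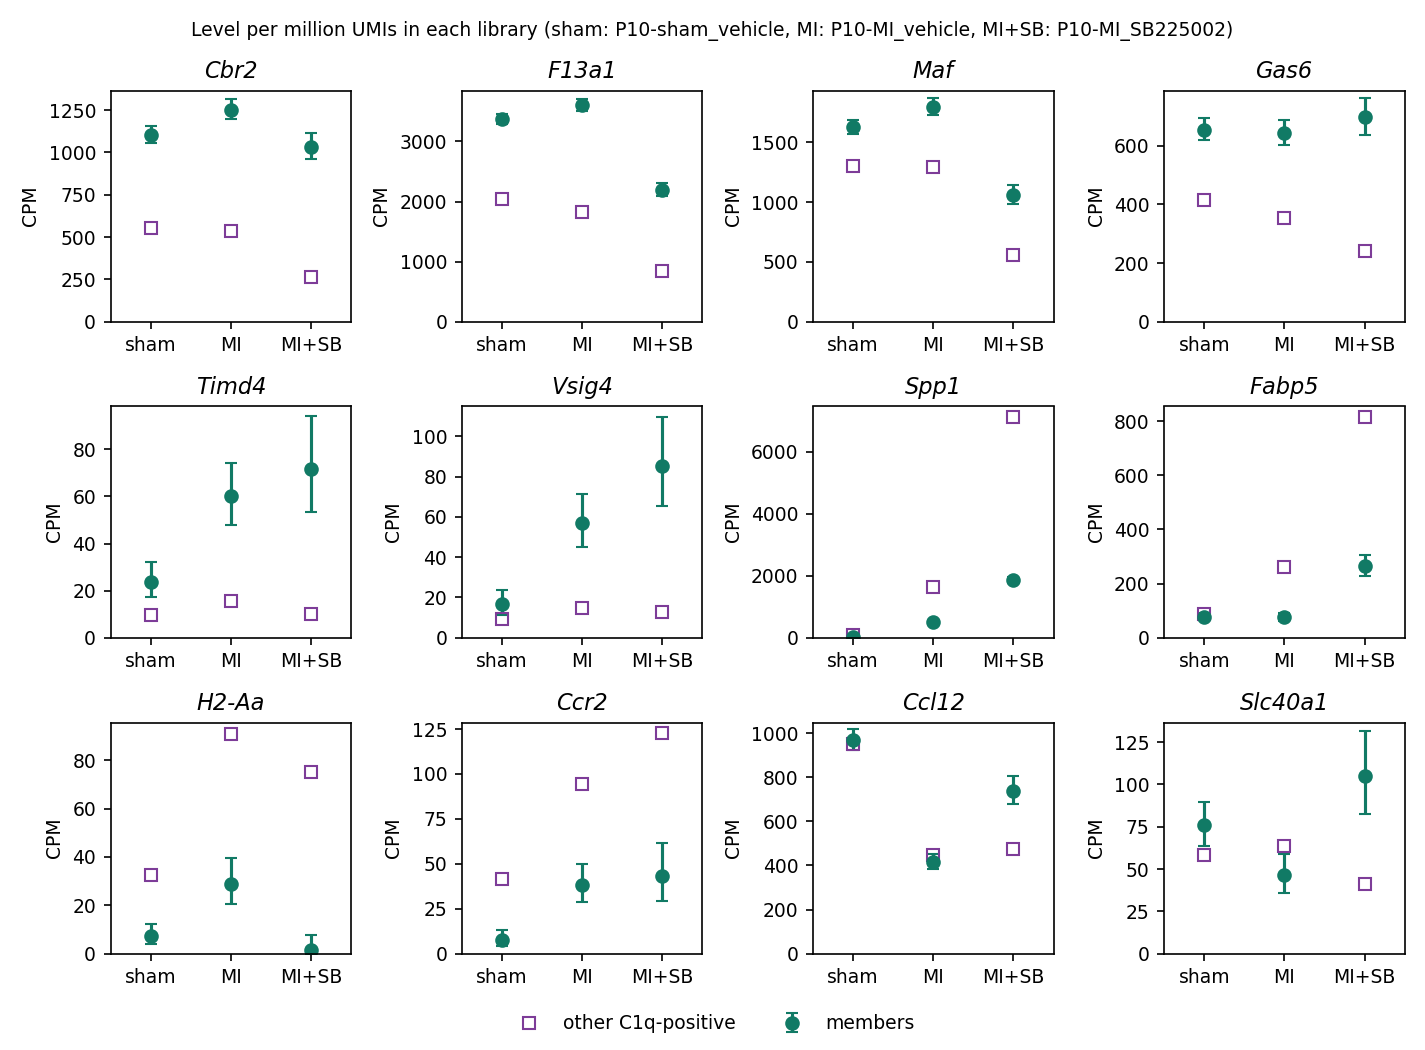
Level of 12 genes (CPM, vertical axis) in the sham, MI and SB225002 libraries; filled points are Lyve1+Folr2+ macrophages with 95% Poisson intervals and open squares are the other C1q-positive non-dividing cells. Timd4 and Vsig4 stand higher in the MI and SB225002 than in the sham cells (Timd4 23.8, 60.005 and 71.5 CPM), and Cbr2 and F13a1 lie above the other cells in every library.

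Of 29 resident identity genes, 5 were higher and 0 lower in the selected cells of the MI library (median log2 ratio 0.18, beside -0.01 for the same genes in the other C1q-positive cells). Per 10000 UMIs, the median selected cell held 5.91 Lyve1 UMIs in the sham and 7.68 in the MI library. For Folr2 these levels were 5.41 and 6.92, and for Cd163 4.34 and 5.99. The part of this selection in the ratios of other resident genes was not tested. Timd4 was higher by 1.33 on the log2 scale (95% interval 0.79 to 1.90), with 43 UMIs in the sham and 83 in the MI library, and Vsig4 by 1.78 (1.16 to 2.44), with 30 and 79 UMIs. In the other C1q-positive cells the ratios were 0.70 and 0.63. Both genes were called under all 14 alternative settings, and whether their ratios differ between the selected and the other cells was not tested. Fcna (0.76), Clec10a (0.61) and Mgl2 (0.59), the last 2 encoding galactose-type lectins, were higher as well, although Fcna and Mgl2 were not called once the 2% of cells with the most UMIs were left out. F13a1 (0.10), Cbr2 (0.18), Maf (0.14), Gas6 (-0.02) and Mrc1 (-0.31) stayed within the fold.

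Some complement and chemokine genes were higher. Of 11 complement genes, C3 (2.39), Vsig4 and C4b were higher, and C4b was at 70.3 CPM in the sham and 150.4 CPM in the MI library (1.10, 0.77 to 1.43). Of 14 chemokines, Ccl8 (66.4 and 156 CPM, 1.23, 0.91 to 1.57), Ccl6 (0.63) and Ccl5 were higher, Ccl5 with 1 and 49 UMIs and not without the top 2% of cells. Ccl12, a ligand of CCR2, was lower, at 970.4 and 416 CPM (-1.22, -1.36 to -1.09), and was lower by 1.08 in the other cells too. Among genes that reached 100 CPM in a library compared, its ratio was the lowest of those called.

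Of 20 injury and lipid-associated genes, 5 were higher and 0 lower (median 0.10, beside 0.39 in the other cells). Spp1 was at 32.6 CPM in the sham and 497 CPM in the MI library (log2 ratio 3.93, 3.54 to 4.34), but 40.8% of its UMIs in the MI library lay in 1 cell. After thinning it was found in 2.87%, 12.9% and 32.0% of selected cells of the 3 libraries, against 0, 17.0% and 38.9% of B cells and 0, 5.26% and 31.6% of neutrophils. In the MI and SB225002 libraries the share thus lay between those of the 2 other cell types, and whether it was free RNA was not tested. Fibronectin, Fn1, was at 56.4, 434 and 352 CPM (2.94, 2.64 to 3.26). It was found in 3.45%, 11.04% and 21.6% of selected cells, in 0, 12.8% and 22.2% of B cells and in 0, 10.5% and 20% of neutrophils. Its share was thus close to those of both cell types in the MI and SB225002 libraries, and whether it was free RNA was not tested. Saa3, with the highest ratio among genes with at least 100 CPM, 8.53 (6.67 to 11.58), was at 1.11, 409 and 57.5 CPM, and 75.3% of its MI UMIs lay in 1 cell. Arg1, at 1.11, 75.2 and 303 CPM, had 64.4% of its MI UMIs in 1 cell.

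Of the 12 highest ratios among genes that reached 100 CPM in a library compared, the other 10 were mostly of genes known from granulocytes and monocytes. Stfa2 (4.86), Camp (4.55), Ltf (4.31), Retnlg (4.28), Ifitm6 (4.22), Stfa3 (3.999), Mmp8 (3.97), BC100530 (3.82), Ifitm1 (3.80) and Ngp (3.79) were all higher in the MI library, and 7 of 7 neutrophil genes (median 3.88) and 11 of 13 monocyte genes (median 2.92) were called. In the other C1q-positive cells the medians of the same genes were 0.52 and 1.15. When the 3 and 13 cells with 10 or more S100a8 and S100a9 UMIs were left out, none of the 2 neutrophil genes that still reached 20 CPM was called, and 3 of the 7 monocyte genes that did were called (median 0.58). Over all genes, 248 were then higher and 169 lower. S100a8 and S100a9 are on both lists and chose the cells left out, so their ratios here are bound by that choice. Camp stood at -0.03 without the 2% of cells with the most of its UMIs.

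Other genes were lower in the MI library. The heme oxygenase Hmox1 was at 473 and 296 CPM (-0.68, -0.85 to -0.51), though 14.6% of its sham UMIs lay in 1 cell and the ratio was -0.34 without the top 2% of cells. The iron exporter Slc40a1 was lower (-0.71), while Cp and Tfrc were higher among 13 iron genes, and of these 4 only Cp was still called without the top 2% of cells. After thinning, Slc40a1 was found in 8.05% of sham and 12.9% of MI selected cells, the opposite order to its ratio. With 1 UMI each of Lyve1 and Folr2 as the threshold, the Hmox1 ratio was 0.036. The replication clamp Pcna (-0.91), the division inhibitor Cdkn1a (-0.78), Plekho1 (-1.04), Sdc4 (-0.79), Fmn1 (-0.73), Snrpd3 (-0.71), Dgkz (-0.70) and Cyr61 (-0.70) were, with Hmox1 and Ccl12, the 10 lowest among genes that reached 100 CPM in a library compared. Pcna was the 1 called of 14 cell cycle genes, and Pcna, Dgkz and Cyr61 were not called in cells thinned to 2000 UMIs. Of 10 heat shock genes 1 was higher and 1 lower. Of 22 immediate-early genes, 3 were lower and 0 higher. None of 24 lysosomal genes was called, 3 of 26 scavenging genes were higher (Timd4, Marco and Cd300lf), and 5 inflammatory genes of 19 were higher and 2 lower.

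The third comparison set the SB225002 library beside the MI library. It shares the MI library with the comparison before it, so a gene that is low in that library alone is lower in one and higher in the other. Of 6718 genes, 389 were higher (5.79%) and 446 lower (6.64%) in the SB225002 library, with a median log2 ratio of -0.01. Without the 2% of cells with the most UMIs of each gene, 364 of the 389 and 345 of the 446 were still called. With a stricter interval, 122 were higher and 151 lower. The SB225002 sum was the shallowest, at 713318 UMIs from 98 cells.

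Immediate-early genes, which cells switch on within minutes of a stimulus, tissue digestion included, were lower. Of 22 tested, 13 were lower and 0 higher (median log2 ratio -0.90, beside -0.67 for the same genes in the other C1q-positive cells), and all 13 were still called without the top 2% of cells. Egr1 was at 258, 251 and 75.7 CPM in the sham, MI and SB225002 libraries (SB225002 over MI -1.73, -2.17 to -1.31). Fos was at 823, 767 and 334 CPM (-1.20, -1.41 to -0.997), and Jun at 858, 646 and 335 CPM (-0.95, -1.16 to -0.74). Fosb (-1.48), Dusp1 (-1.11), Klf4 (-0.97), Klf2 (-0.89) and Atf3 (-0.95) were lower too. In each gene named here the SB225002 library was the lowest of the 3, and handling of the tissue cannot be told apart from the treatment. Of 11 heat shock genes, 1 was lower and 0 higher.

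Without the cells rich in S100a8 and S100a9, 2 of the 2 neutrophil genes and 3 of the 9 monocyte genes that reached 20 CPM were higher in the SB225002 library (medians 0.91 and 0.53), against 1 of 7 and 2 of 14 with them, where 1 neutrophil gene was also lower. Over all genes, 399 were higher and 489 lower without these cells. S100a8 and S100a9 are on both lists and chose the cells left out. Their ratios here are therefore bound by that choice, and these counts are no separate check on the lists.

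Inflammatory genes were lower in 7 of 18 cases and higher in 0 (median -0.37, beside -0.15 in the other cells), and 4 of the 7 were called without the top 2% of cells. They included Tnfaip2 (46.3 and 9.81 CPM, -2.24, -3.61 to -1.11), the decay factor Zfp36 (-0.94), Nfkbiz (-0.89) and the lipopolysaccharide receptor Tlr4 (-0.73). Saa3 was lower by 2.83 on the log2 scale, and by 0.32 without the top 2% of cells. The neutrophil-attracting chemokine Cxcl2 was at 145, 183 and 63.1 CPM (-1.54, -2.03 to -1.07).

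Of 29 resident identity genes, 5 were lower and 0 higher, with a median log2 ratio of -0.01, beside -0.44 for the same genes in the other C1q-positive cells. Among the lower ones were Mgl2 (167 and 65.9 CPM, -1.34, -1.83 to -0.88), Maf (1796 and 1061 CPM, -0.76, -0.88 to -0.64), the receptor Lifr (-0.74) and F13a1 (3604 and 2193 CPM, -0.72, -0.80 to -0.63). The other C1q-positive cells stood at -1.25, -1.21, -1.19 and -1.12 for these genes. Cbr2 was at -0.28 (-0.40 to -0.15) in the selected cells and -1.04 in the others, Mrc1 at -0.21 and -0.86, and Gas6 at 0.12 and -0.56. The selected cells were required to carry resident genes in every library and the others were not, and the difference between the 2 classes of cells was not tested. Timd4 (0.25) and Fcna (0.05) stayed within the fold, and Vsig4 was higher by 0.58 (0.08 to 1.08), just under it.

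Glycolytic genes were higher. Of 17 genes of glycolysis and the hypoxia response, 9 were higher and 2 lower (median 0.60, beside 0.51 in the other cells). Gapdh was at 1368, 1174 and 1911 CPM (0.70, 0.60 to 0.81), Pgk1 at 173, 134 and 255 CPM (0.92, 0.62 to 1.23), and Ldha at 293, 287 and 475 CPM (0.73, 0.51 to 0.94). Hexokinase 2, Hk2, was the exception, at 52.0, 75.2 and 14.0 CPM (-2.42, -3.53 to -1.49), with the transcription factor Hif1a (-0.60).

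Of 14 iron and heme genes, 4 were higher and 1, Cp, was lower. The ferritin chain Fth1 was at 4971, 4503 and 7025 CPM (0.64, 0.59 to 0.70) and Ftl1 at 6051, 4943 and 8149 CPM (0.72, 0.67 to 0.77), and both ratios were 0.66 and 0.68 in the other cells. Slc40a1, ferroportin, was at 75.8, 46.3 and 105 CPM (1.18, 0.68 to 1.69), while in the other C1q-positive cells it was at 58.5, 63.3 and 41.3 CPM (-0.62). Slc40a1 was not called when 1 UMI each of Lyve1 and Folr2 sufficed (0.53) or when the selected cells were thinned to 2000 UMIs (0.62). After thinning it was found in 12.9% of the selected cells of the MI and 13.4% of those of the SB225002 library.

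Genes of the cell cycle were higher although every cell lacked Mki67 and Top2a UMIs. Of 18 tested, 10 were higher and 0 lower (median 0.78, beside 0.48 in the other cells). Tubb5 was at 367, 295 and 512 CPM (0.79, 0.59 to 1.002), Stmn1 at 154, 107 and 207 CPM (0.96, 0.62 to 1.29), and Pcna at 114, 60.7 and 96.7 CPM (0.67, 0.19 to 1.15). Tubb5 and Stmn1, tubulin and a tubulin regulator, were highest in the SB225002 library, and Pcna was not. In cells thinned to 2000 UMIs 3 of the 18 were called (median 0.78), beside 282 higher and 253 lower over all genes. With a stricter interval 4 of the 18 were called, beside 122 higher and 151 lower of all 6718 genes. The cells of the SB225002 library were the shallowest, at a median of 6428 UMIs, so 0 UMIs of Mki67 and Top2a was the weakest limit there, and its part in this result was not tested.

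Injury and lipid-associated genes were higher in 6 of 21 cases and lower in 1 (median 0.41, beside 0.85 in the other cells). Trem2 was at 272, 232 and 402 CPM (0.79, 0.56 to 1.03) and was found in 35.6%, 31.9% and 53.6% of thinned selected cells, against 0, 6.38% and 16.7% of B cells and 0, 1.754% and 7.37% of neutrophils. Lgals3 was at 446, 484 and 817 CPM (0.75, 0.59 to 0.92). After thinning it was found in 39.9% of MI and 44.3% of SB225002 selected cells. In the same 2 libraries it was found in 84.2% and 88.4% of neutrophils and in 23.4% and 27.8% of B cells. Spp1 (1.91, 1.77 to 2.04), Arg1 (2.01, 1.67 to 2.36) and Fabp5 (76.3, 75.9 and 265 CPM, 1.80, 1.45 to 2.16) had the highest ratios among genes that reached 100 CPM in a library compared. Fabp5 was found in 15.5% of thinned selected cells of the SB225002 library and in 27.8% of its B cells, and 49.7% of its UMIs there lay in 1 cell, so Trem2 was above the share in B cells and neutrophils and Fabp5 was not.

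Genes stimulated by interferon were higher in 5 of 20 cases and lower in 0 (median 0.40, beside 0.57 in the other cells), among them Isg15 (31.5, 12.3 and 58.9 CPM, 2.26, 1.42 to 3.17), Irf7 (1.26) and the surface tether Bst2 (0.60). In thinned cells 1 of the 20 was higher and 1 lower, beside 282 higher and 253 lower over all genes. Of 27 transcription factors, 8 were lower and 0 higher, Maf, Klf4 and Klf2 among them. Of 15 chemokines, 2 were higher and 4 lower. Ccl12 was at 970.4, 416 and 739 CPM (0.83, 0.66 to 1.003), whereas all 50 Cxcl10 UMIs of the SB225002 library lay in 1 cell. H2-Aa had 13, 40 and 1 UMIs, found in 2, 12 and 1 cells.

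Some of the lowest ratios had close values in the other C1q-positive cells. The ribosomal protein gene Rps29 was at 5601, 6995 and 2552 CPM (-1.45) and Rps28 at 1622, 2242 and 922 CPM (-1.28), and in the other C1q-positive cells their ratios were -1.43 and -1.31. Cmss1 was at -1.33 (others -1.47), while Rps27rt was at -1.27 (others -0.80). The other named higher genes were 2010005H15Rik (1.41), Cela1 (1.15), Dtymk (1.15), Suclg1 (1.10), Alyref (1.09), Myl2 (1.08), Tbcb (1.07) and Glrx5 (1.01). The UMIs of 2010005H15Rik lay in 15 selected cells of the MI and 10 of the SB225002 library, with 30.4% and 29.1% of them in 1 cell. In cells thinned to 2000 UMIs Suclg1, Myl2, Glrx5, Cxcl2 and Rps27rt were not called, nor was 2010005H15Rik with thresholds per 10000 UMIs or with cells that carried other-type UMIs left out. Myl2 is a gene of heart muscle, and 3 of 4 cardiomyocyte marker genes were higher as well (median 1.12, beside 0.12 in the other cells), whose part was not tested. Xist, the RNA of the inactive X chromosome, was at 303, 252 and 453 CPM in the selected cells (SB225002 over MI 0.85) and 274, 159 and 265 CPM in the others (0.74), and the balance of the sexes in each pool cannot be told apart from the condition.

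**Figure D5:**
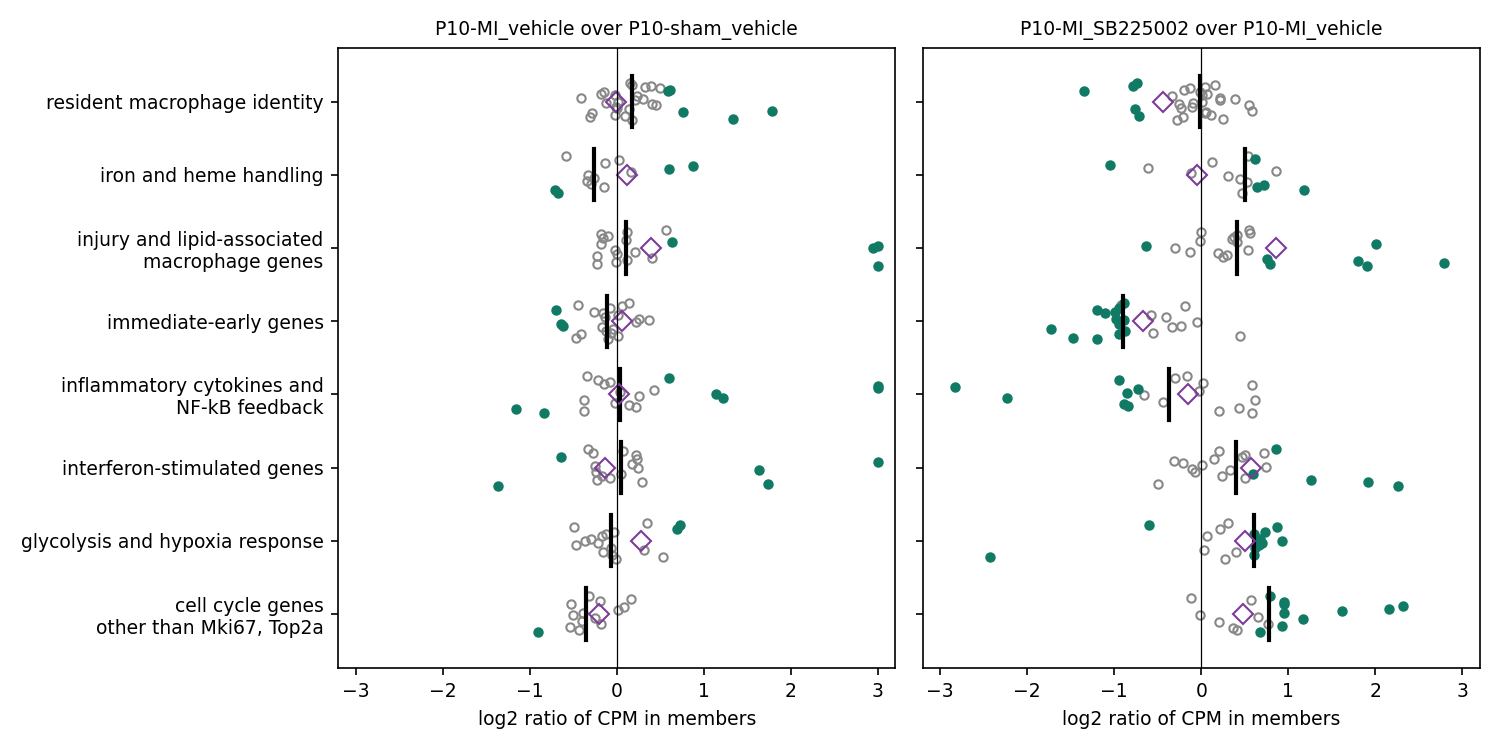
Log2 ratio (horizontal axis, values past 3 drawn at 3) of each gene of 8 lists in Lyve1+Folr2+ macrophages, MI over sham (left) and SB225002 over MI (right); filled points are called, open points are not, black bars are medians and purple diamonds are medians of the same genes in the other C1q-positive cells. On the right, immediate-early genes lie to the left with a median of -0.90, and glycolytic (0.60) and cell cycle genes (0.78) lie to the right.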

How the data were processed

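Cells were sorted as CD45+F4/80+ and viable, and droplet libraries were sequenced for 1 sample per condition. The authors deposited 3 tables of UMI counts per gene and cell barcode, with 3390, 4511 and 5783 barcodes and 29323567, 32498608 and 34235864 UMIs (sham, MI, SB225002) over 54752 gene symbols. The submitters' processing notes name build mm10 and Seurat 4.1.0. The aligner and annotation are not given in the sources used here.

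Cells with 500 to 30000 UMIs, 500 to 5000 genes and under 10% mitochondrial UMIs were kept. The members, 29 gene lists and tests were chosen with earlier results of these data known. UMIs were summed per class and library. Members and other cells were compared with edgeR 4.0.16 (R 4.3.3) quasi-likelihood with the library as a block, genes of the rule left out and Benjamini-Hochberg adjustment over all genes. The pairing comes from both classes being cells of 1 library. Each library pooled hearts of both sexes, so the block does not make animals or sexes even between the classes. After thinning, Xist was found in 27.0%, 28.2% and 44.3% of selected cells, beside 24.8%, 16.8% and 28.0% of the other cells. The part of this in the comparison of the classes was not tested. Library ratios were given exact conditional intervals, shares exact binomial intervals and share differences Newcombe intervals (scipy 1.17.1), all at 95%, all for counting error only and none adjusted for the number of genes. Thinning drew UMIs without replacement. Both steps were tested on simulated data, in which the rule for library ratios, unlike edgeR, also called many unchanged genes, since its intervals are not adjusted. The stricter interval used for it was of 99.9%.

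Named genes were the 12 highest and 10 lowest called genes of a comparison with at least 100 CPM, up to 4 of the most abundant and 3 called each way per list, the 12 most uneven genes, the genes of the rule, Cbr2, Timd4, Ccr2, Xist and genes the study discusses. Other genes named from the lists, such as Axl, Vsig4 and Tnfaip2, were chosen after their values were seen. Alternatives were other scalings, filters, thresholds, comparison cells and left-out libraries or cells, and DESeq2 1.42.0.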

Additional observations from a re-analysis of the deposited data

Results flagged for a closer look

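Slc40a1, which encodes the iron exporter ferroportin, differed in direction between the 2 classes of cells. Between the SB225002 and MI libraries its log2 ratio was 1.18 (0.68 to 1.69) in Lyve1+Folr2+ macrophages, at 46.3 and 105 CPM, and -0.62 in the other C1q-positive non-dividing cells, at 63.3 and 41.3 CPM. The difference between the 2 ratios was not tested, since each condition is 1 library. The ratio in Lyve1+Folr2+ macrophages was 0.53 with 1 UMI each of Lyve1 and Folr2 as the threshold and 0.62 in cells thinned to 2000 UMIs, and was not called under either. After thinning, Slc40a1 was found in close shares of these macrophages, 12.9% in the MI and 13.4% in the SB225002 library. In the other C1q-positive cells the shares were 9.61% and 5.73%, in neutrophils 7.02% and 11.6%, and in B cells 0 and 0. Whether it was free RNA was not tested. Among the 835 genes called in this comparison, 13 had a called ratio of the opposite sign in the other cells, and 1 of these reached 100 CPM.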

How the results depend on the processing

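The share of Lyve1+Folr2+ macrophages was lower in the SB225002 than in the MI library under every setting tried. The MI minus sham difference turned to 1.54 points after thinning to 2000 UMIs and 0.996 points (-1.003 to 2.97) at 4000 UMIs. It was -2.04 points with thresholds per 10000 UMIs. With 1 UMI of Lyve1 and Folr2 required in thinned cells, it was -1.26 points at 2000 UMIs and -6.50 points (-10.3 to -2.73) at 4000 UMIs. In these last 2 settings C1q and division were read before thinning, and both were chosen after seeing the data. The SB225002 minus MI difference was -1.68 points after thinning to 2000 UMIs, -8.49 at 4000 UMIs with 1 UMI required (also chosen after seeing the data) and -7.32 with 1 UMI required and no thinning. Of 20 alternative differences in share, 13 stayed within the spread of the value reported.

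Members against other cells gave 187 higher and 268 lower genes. DESeq2 gave 118 and 129, no filter on low counts gave 578 lower, and comparison cells without Lyve1 or Folr2 gave 411 and 533. Leaving out 1 library gave 24 to 234 higher and 46 to 353 lower, the fewest without the MI library. Without the library as a block, the unpaired fit, which leaves the spread between conditions in the error, gave 3 higher and 3 lower genes. Of 264 values of named genes under alternatives, 243 kept their call and 0 turned direction.

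Between the MI and sham libraries (296 higher, 216 lower), a minimum of 50 CPM gave 118 and 77, no minimum 588 and 355, a fold of 2 gave 144 and 46, and a stricter interval gave 157 and 44. Without the 2% of cells with the most UMIs, 153 were higher. Hmox1 turned to 0.036 with 1 UMI each of Lyve1 and Folr2 required. Between the SB225002 and MI libraries (389 and 446), the minimum of 50 CPM gave 249 and 290, the fold of 2 gave 109 and 178, the stricter interval 122 and 151, and thinning 253 lower. The stricter interval and the removal of the 2% of cells were chosen after seeing the data. The cause of these changes was not tested beyond what a stricter or looser threshold fixes. With 98 to 174 cells for each library and 1 library for each condition, depth limits statements on genes under 20 CPM, and no spread between animals can be given.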
